A study of Gossypium hirsutum with 89 samples.

Results

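The cellulose synthase gene CelA1 and the chitinase-like gene CTL1 of upland cotton, Gossypium hirsutum, were followed through fibre development with 3 probe sets of the Affymetrix Cotton Genome array, out of 24132 probe sets in the deposited table. The 3 were taken by identifier. Ghi.1151.1.A1_at and Ghi.8461.1.A1_at are both assigned by the platform annotation to the CelA1 gene LOC107909647, and they are called U58283 and CO499660 here, after the GenBank accession that the annotation gives for each. Ghi.4741.1.S1_s_at is assigned to the CTL1 gene LOC107892108. All 3 were among the 18889 probe sets that passed a filter on low signals. The CelA1 probe sets followed different courses and are described apart. Probe sequences were not available here. Whether CO499660 reads CelA1, another copy of the gene or another transcript could therefore not be checked, and its name rests on the annotation.

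A cotton fibre is the outgrowth of a single epidermal cell of the ovule. It elongates inside a thin primary wall and later lays down a thick secondary wall of nearly pure cellulose. Cellulose is spun at the plasma membrane by complexes of cellulose synthases, and CelA1 encodes a catalytic subunit of the kind that builds the secondary wall. CTL1 encodes a protein related to chitinases that is known in cotton for its expression in fibres forming the secondary wall, and related proteins in Arabidopsis take part in cellulose assembly.

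The samples came from 5 genotypes sown in an open field. JKC 725 and JKC 777 carry the label of superior fibre traits, and JKC 703, JKC 783 and JKC 737 that of inferior ones. Flowers were tagged at anthesis and harvested at 0, 6, 9, 12, 19 and 25 days post anthesis (dpa). At 0 dpa the RNA came from whole ovules, although the sample titles call that stage fibre. From 6 dpa on only fibre was taken, so comparing 6 with 0 dpa compares unlike tissues too. Each of the 30 groups of genotype and day had 3 biological replicates, except JKC 783 at 25 dpa with 2, which gave 89 arrays. The labels do not say how many plants went into a sample or whether replicates came from separate plants, so the p-values measure the spread between these samples.

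Signals are MAS5 intensities on a linear scale, scaled by the authors to a common trimmed mean, and CelA1 and CTL1 levels were not compared between probe sets. Changes are differences of log2(signal + 4.38), given with limma's standard error (SE), and a change was called at an adjusted p under 0.05 and a size of at least 1. Where arrays are said not to overlap, this describes those arrays, and how often it occurs over all tested probe sets was not counted. No detection calls were used here. The lowest groups were therefore read only against the filter value, a signal of 40.4, and a change that starts below it depends on the added 4.38. In RNA from bulk fibre, fewer cells with a transcript and less of it in each cell cannot be told apart.

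The arrays of a group agreed closely, with a median correlation to the other arrays of 0.974 (range 0.912 to 0.991). The lowest was JKC 725 at 12 dpa, replicate 2, whose spiked control signal was 4.02 times that of the other arrays of its group. JKC 703 at 19 dpa, replicate 3, had the highest ratio of 3' to 5' actin signal, 17.1, against a median of 5.51 over all arrays. This ratio, a sign of RNA quality, also moved with genotype and day. In JKC 725 and JKC 703 it was 2.57 to 3.56 at 6 dpa and 7.498 to 9.09 at 25 dpa, and in the other 3 genotypes 6.59 to 12.9 at 6 dpa and 4.09 to 6.65 at 25 dpa. Its part in the differences between genotypes was not tested. At 6 dpa the fibre marker H6L, which encodes an abundant fibre cell wall protein, had genotype means of 8379 to 11231, against 134 to 223 in ovules. E6, another abundant fibre transcript, had 9934 to 14365 at 6 dpa, against 2254 to 2856 in ovules. Other fibre markers were not above ovules throughout. HOX3 had 1067 to 2074 at 6 dpa, against 697 to 1228 in ovules. At 25 dpa 1 LTP3 probe set had 47.9 to 433, against 471 to 1366 in ovules, and the lowest EXPA1 mean was 315, against 215 to 425.

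The CelA1 probe set U58283 was low in ovules and in young fibre of every genotype and was high at 25 dpa in every genotype. The day at which it turned on split the genotypes. In JKC 725 and JKC 703 the signal reached 50% of its peak by 19 dpa, and in JKC 777, JKC 783 and JKC 737 only at 25 dpa. Between neighbouring days 11 of 25 steps within genotypes were called, all of them higher at the later day.

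In JKC 725 the CelA1 probe set U58283 read 52.0, 54.5 and 46.4 at 0 dpa, 33.5, 47.3 and 36.6 at 6 dpa, and 88.8, 153 and 84.95 at 9 dpa. At 12 dpa the arrays read 2594, 532 and 2660, at 19 dpa 13794, 12350 and 12819, and at 25 dpa 17230, 15904 and 17038. The groups did not overlap from 6 dpa on, and the low array at 12 dpa was replicate 2, the one that stood apart from its group. The steps to 9, 12 and 19 dpa were called at +1.34, +3.82 and +3.07 (SE 0.44, n = 3 arrays a day; adjusted p = 0.0218, 2.18e-09 and 3.01e-08), while the step to 25 dpa was +0.37 (adjusted p = 0.639). The call at 9 dpa was lost when any of 3 single arrays was left out, JKC 725 at 6 dpa replicate 1 or 3 or at 9 dpa replicate 2, with adjusted p of 0.0517 to 0.104, with quantile normalization (+1.08, adjusted p = 0.0602) and with an added 32 (+0.96, adjusted p = 0.0549). Over all tested probe sets the 5 steps of JKC 725, in order of day, called 33.5%, 10.2%, 2.98%, 19.6% and 6.51%.

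JKC 703, of the other class, followed a like course. At 12 dpa it was above JKC 725 by 1.93 (adjusted p = 0.00186), with the low JKC 725 array included. The 3 arrays of JKC 703 read 51.7, 59.6 and 56.6 at 0 dpa, 63.0, 55.3 and 54.1 at 6 dpa, and 124, 115 and 149 at 9 dpa. They read 7181, 6992 and 4109 at 12 dpa, 11712, 13174 and 11947 at 19 dpa, and 14019, 14603 and 13766 at 25 dpa. The step to 9 dpa was +1.11 ± 0.44 (SE; adjusted p = 0.127) and was not called. The jump at 12 dpa was the largest step of this genotype, +5.48 ± 0.44 (SE; adjusted p = 2.07e-15). The step to 19 dpa was called at +1.05 ± 0.44 (adjusted p = 0.0375), and this call was lost on leaving out any of 4 single arrays, JKC 703 at 12 dpa replicate 3 or any replicate at 19 dpa, with adjusted p of 0.0596 to 0.183, and with median centring (+0.70, adjusted p = 0.184). In JKC 703 the 5 steps called 30.3%, 2.67%, 9.39%, 29% and 5.72% of the tested probe sets.

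In JKC 777 and JKC 737 the CelA1 probe set U58283 stayed near the filter value through 12 dpa. JKC 777 read 36.4, 27.7 and 41.1 at 12 dpa, 147, 37.7 and 108 at 19 dpa and 13703, 15426 and 7858 at 25 dpa. JKC 737 read 43.8, 52.8 and 46.2 at 12 dpa, 130, 98.7 and 112 at 19 dpa and 22036, 16693 and 16198 at 25 dpa. At 0, 6 and 9 dpa the arrays of both lay between 14.0 and 102. Nearly the whole increase thus fell in the last interval, where the steps were +7.05 in JKC 777 and +7.27 in JKC 737 (SE 0.44; adjusted p = 1.33e-20 and 1.06e-21). The smaller steps from 12 to 19 dpa were just inside the threshold, +1.19 in JKC 777 (adjusted p = 0.0390) and +1.18 in JKC 737 (adjusted p = 0.0488). The first was lost on leaving out any of 5 single arrays, JKC 777 at 12 dpa replicates 1 to 3 or at 19 dpa replicate 1 or 3 (adjusted p of 0.0561 to 0.265) and with an added 32 (+0.85, adjusted p = 0.0910), and the second on leaving out any of 59 of the 89 arrays. In order of day, the steps called 29.1%, 1.67%, 2.74%, 8.9% and 11.5% of the tested probe sets in JKC 777, and 18.4%, 3.88%, 1.69%, 8.16% and 17.7% in JKC 737.

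JKC 783 was intermediate at 19 dpa and the lowest genotype at 25 dpa. The CelA1 probe set U58283 read 97.5, 40.1 and 50.9 at 12 dpa, 520, 183 and 905 at 19 dpa, and 1652 and 8258 at 25 dpa. The arrays at 0, 6 and 9 dpa lay between 22.6 and 56.4. The steps to 19 and 25 dpa were +2.83 ± 0.44 and +3.05 ± 0.49 (SE; adjusted p = 9.85e-07 and 1.05e-05). The last rests on a pair of arrays far apart, and without JKC 783 at 25 dpa replicate 2 it was +1.89 (adjusted p = 0.0483). Without replicate 2 of every group it was +1.26 and no longer called (adjusted p = 0.177). In JKC 783 the 5 steps called 19.8%, 4.3%, 4.94%, 8.45% and 4.19% of the tested probe sets.

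Over the fibre days as a whole, 25 against 6 dpa, the CelA1 probe set U58283 rose in 5 of 5 genotypes. Mean signals at 25 and at 6 dpa were 16724 and 39.1 (JKC 725), 12329 and 45.7 (JKC 777), 14129 and 57.5 (JKC 703), 4955 and 38.6 (JKC 783), and 18309 and 30.2 (JKC 737). The net changes were +8.60, +7.94, +7.84, +6.43 and +9.11 in the same order of genotypes (SE 0.44, and 0.49 in JKC 783; largest adjusted p = 9.81e-18). These start from signals close to the filter value, and with an added 1 in place of 4.38 they were +6.55 to +9.28, and with an added 32 they were +5.73 to +8.21. Probe sets called higher over this interval made up 24.4%, 13.6%, 20.3%, 12.8% and 13.8% of those tested in JKC 725, JKC 777, JKC 703, JKC 783 and JKC 737.

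**Figure D1:**
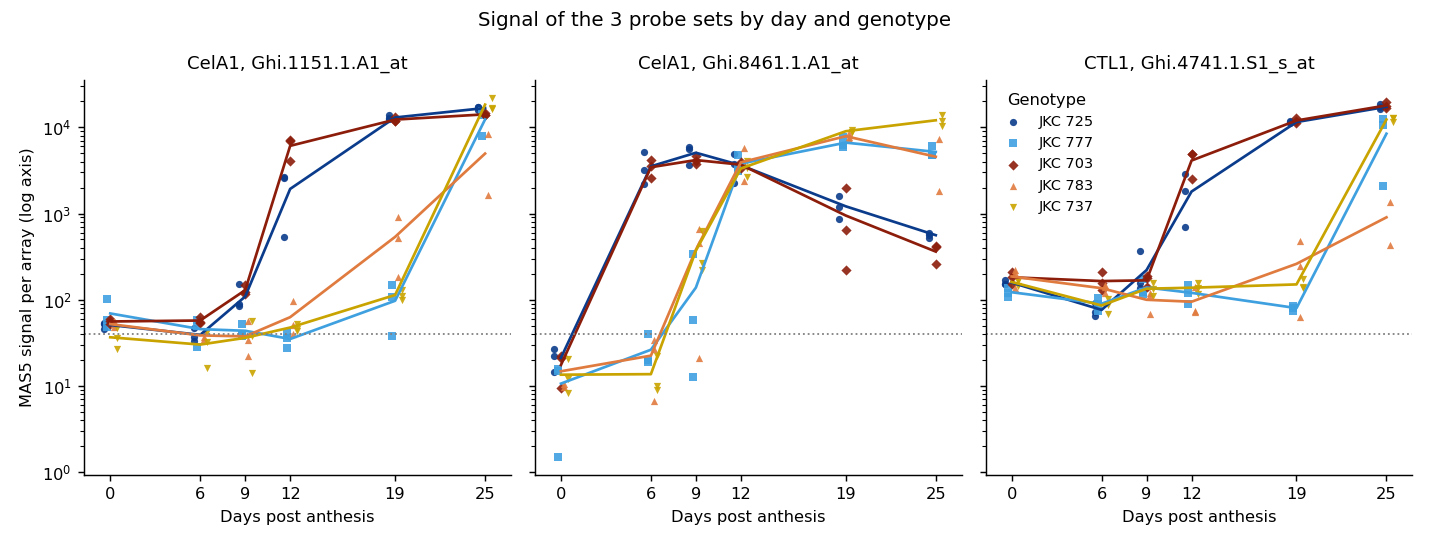
MAS5 signal per array (log axis) against days post anthesis for both CelA1 probe sets and for CTL1, with 1 point per array, lines through the group means of each genotype, and a dotted line at the filter value of 40.4. CelA1 U58283 and CTL1 are high by 19 dpa in JKC 725 and JKC 703 only, while CO499660 is already at 2173 or more at 6 dpa in those genotypes and at 2405 or more at 12 dpa in the others.

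The CelA1 probe set CO499660 turned on earlier and, in JKC 725 and JKC 703, declined again. It was near the detection floor in ovules of all genotypes, with 1.51 to 27.0 on the 15 arrays. In fibre it was already high at 6 dpa in JKC 725 and JKC 703, and it read 2405 or more on every array at 12 dpa in JKC 777, JKC 783 and JKC 737. Of 25 steps 7 were called higher at the later day and 1 lower. Each of these steps called 1.67% to 33.5% of all tested probe sets in either direction, as listed by genotype above.

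JKC 725 read 2173, 3221 and 5176 for CO499660 at 6 dpa, 5634, 3677 and 5895 at 9 dpa, and 4851, 2265 and 3756 at 12 dpa. At 19 dpa it read 1178, 854 and 1603, and at 25 dpa 601, 557 and 524. The mean signal was highest at 9 dpa and stood at 11.1% of that peak at 25 dpa, with no overlap between the arrays of 12, 19 and 25 dpa. The arrays of 6, 9 and 12 dpa did overlap, and the steps between them were +0.58 and -0.52 (adjusted p = 0.575 and 0.759). The step from ovule to 6 dpa fibre was +7.05 ± 0.66 (SE; adjusted p = 2.40e-14). No later single step was called, and the step from 12 to 19 dpa, -1.56 ± 0.66, came closest (adjusted p = 0.0552). It would be called without JKC 725 at 12 dpa replicate 2 (-1.86, adjusted p = 0.0397).

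JKC 703 read 2604, 3568 and 4154 at 6 dpa, 4678, 3760 and 4069 at 9 dpa, and 3355, 3953 and 3740 at 12 dpa. It read 1974, 646 and 221 at 19 dpa and 419, 410 and 257 at 25 dpa. As in JKC 725, the highest mean was at 9 dpa, and 8.68% of it was left at 25 dpa. The arrays of 6, 9 and 12 dpa overlapped here too, and the steps between them were +0.30 and -0.18 (adjusted p = 0.886 and 0.890). The step to 6 dpa was +7.33 ± 0.66 (SE; adjusted p = 6.64e-15). The fall from 12 to 19 dpa, -2.47 ± 0.66, was called (adjusted p = 0.00137), but it was -1.70 with an adjusted p of 0.0511 without replicate 3 of 19 dpa, the array with the high actin ratio.

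In the other genotypes the CelA1 probe set CO499660 was at ovule-like signals in fibre of 6 dpa. JKC 777 read 39.99, 19.06 and 19.96 at 6 dpa, 344, 58.4 and 12.9 at 9 dpa, and 3151, 4714 and 3506 at 12 dpa. JKC 783 read 6.65, 27.1 and 33.7 at 6 dpa, 664, 454 and 20.9 at 9 dpa, and 2405, 3615 and 5738 at 12 dpa. JKC 737 read 9.02, 10.02 and 22.1 at 6 dpa, 224, 268 and 623 at 9 dpa, and 3331, 2621 and 4033 at 12 dpa. At 9 dpa 1 array each of JKC 777 and JKC 783, replicate 3 in both, was still at the 6 dpa signal, and the highest array of JKC 783 was 31.7 times its lowest. The step to 12 dpa was called in all 3 genotypes, at +5.69 in JKC 777, +4.22 in JKC 783 and +3.28 in JKC 737 (SE 0.66; adjusted p = 6.56e-09, 8.41e-06 and 0.00122). The step of JKC 783 was +2.74 without its replicate 3 of 9 dpa (adjusted p = 0.00318). The step to 9 dpa was called in JKC 783 at +3.06 (adjusted p = 8.47e-04) and in JKC 737 at +4.30 (adjusted p = 4.35e-06), while in JKC 777 it was +1.30 (adjusted p = 0.271). The call in JKC 783 was lost without replicate 1 of every group (+1.64, adjusted p = 0.187) and without replicate 2 (+2.67, adjusted p = 0.123). The step of JKC 737 to 12 dpa was lost without replicate 2 (+3.28, adjusted p = 0.105).

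After 12 dpa the means of these genotypes took different courses, but no pair among them was called at 19 or 25 dpa. JKC 777 read 7707, 6274 and 5938 at 19 dpa and 4721, 4829 and 5997 at 25 dpa. JKC 783 read 8530, 7341 and 7775 at 19 dpa and 1801 and 7306 at 25 dpa. JKC 737 read 9342, 8852 and 8812 at 19 dpa and 14017, 11885 and 10262 at 25 dpa. In JKC 737 the arrays of 12, 19 and 25 dpa did not overlap, with means of 3329, 9002 and 12055. In JKC 777 and JKC 783 every 19 dpa array was above every 12 dpa array. Both statements only describe the arrays, and none of the 6 steps was called. The step of JKC 737 from 12 to 19 dpa was +1.46 (adjusted p = 0.122), or +1.45 and called (adjusted p = 0.0388) with an added 32 in place of 4.38. JKC 737 was the genotype whose peak lay at 25 dpa, while JKC 777 and JKC 783 had 78.1% and 57.8% of their 19 dpa peaks left.

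The net change of the CelA1 probe set CO499660, 25 against 6 dpa, therefore took opposite signs. It was -2.55 in JKC 725 and -3.24 in JKC 703, with mean signals of 561 and 362 at 25 dpa against 3523 and 3442 at 6 dpa (SE 0.66; adjusted p = 6.25e-04 and 2.34e-05). It was +7.46 in JKC 777, +7.26 in JKC 783 and +9.44 in JKC 737, with mean signals of 5182, 4554 and 12055 at 25 dpa against 26.3, 22.5 and 13.7 at 6 dpa (SE 0.66 to 0.74; largest adjusted p = 7.84e-13). Probe sets called lower over the interval made up 19%, 18.8%, 18.9%, 19.3% and 26.1% of those tested, for JKC 725, JKC 777, JKC 703, JKC 783 and JKC 737 in that order. The rises start below the filter value and were +6.11 to +8.05 with an added 32 in place of 4.38.

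**Figure D2:**
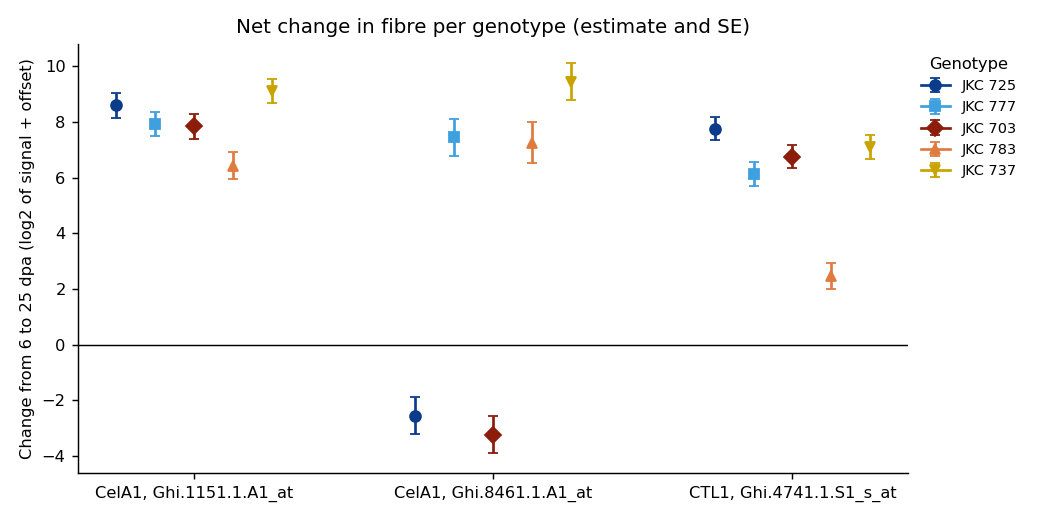
Net change from 6 to 25 dpa fibre in log2 of signal plus 4.38 for each probe set and genotype, with points for limma's estimate and bars for its SE. All 5 genotypes lie above 0 for CelA1 U58283 (+6.43 to +9.11) and for CTL1 (+2.47 to +7.76), while CO499660 lies below 0 in JKC 725 and JKC 703 and above it in the others.

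Because both CelA1 probe sets are on every array, the change of their log2 difference, CO499660 minus U58283, could be tested within arrays. The size of the difference also holds how brightly each probe set binds, so changes of it are read and its level is not. The mean change over the 5 genotypes was tested in each of the 5 steps by an exact two-sided permutation of the day labels within genotypes (1600000 to 3200000 arrangements), with p adjusted over the 5 steps. From 0 to 6 dpa the mean change was +3.50 (adjusted p = 1.14e-04), made up mainly of +7.41 in JKC 725 and +7.30 in JKC 703, beside +0.29 to +1.70 in the others. From 6 to 9 dpa the mean was +1.42 (adjusted p = 0.0294), but its sign was not shared: JKC 725 and JKC 703 had -0.76 and -0.81, and JKC 777, JKC 783 and JKC 737 had +1.32, +3.17 and +4.15. From 12 to 19 dpa the mean was -1.995 (adjusted p = 8.76e-04), made up of -4.62 (JKC 725), -3.53 (JKC 703), -1.73 (JKC 783), -0.37 (JKC 777) and +0.28 (JKC 737). From 19 to 25 dpa it was -4.19 (adjusted p = 1.25e-05), with a fall in every genotype. The step from 6 to 9 dpa was not called without replicate 1 of every group (+0.70, adjusted p = 0.368) or without replicate 2 (+1.39, adjusted p = 0.111).

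The step from 9 to 12 dpa averaged +0.46 (adjusted p = 0.656), and the genotypes again moved in opposite directions. The change was -4.34 in JKC 725 and -5.65 in JKC 703, while it was +5.98 in JKC 777, +3.55 in JKC 783 and +2.76 in JKC 737. From 19 to 25 dpa it changed by -1.43 in JKC 725 and -1.09 in JKC 703 and by -7.41 in JKC 777, -4.16 in JKC 783 and -6.86 in JKC 737. Across the 25 fibre group means the correlation of both CelA1 probe sets was r = 0.28 (Spearman 0.42), given as a description over points that share arrays, genotypes and days.

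**Figure D3:**
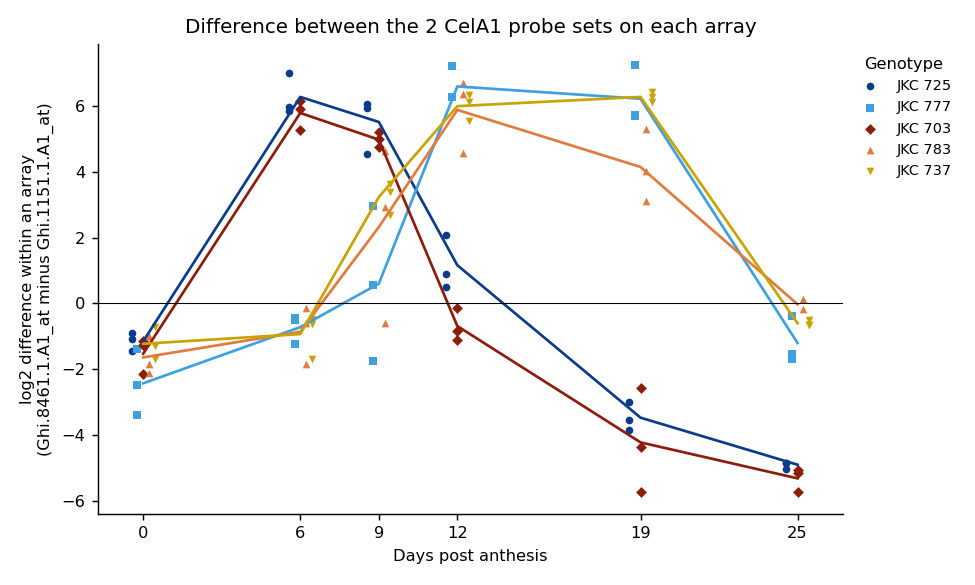
Difference of log2(signal + 4.38) between the CelA1 probe sets on each array, CO499660 minus U58283, against days post anthesis, with 1 point per array and lines through genotype means. JKC 725 and JKC 703 are at their highest at 6 dpa and lower at each later day, while JKC 777, JKC 783 and JKC 737 rise to 12 dpa and fall most from 19 to 25 dpa.

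CTL1 was high late. Its large steps fell on the same days as those of the CelA1 probe set U58283 in JKC 725, JKC 703, JKC 777 and JKC 737, while it stayed low in JKC 783 and lacked the small step from 12 to 19 dpa that U58283 had in JKC 777 and JKC 737. All its 30 group means were above the filter value. In ovules the 15 arrays read 108 to 219 and in 6 dpa fibre 64.9 to 210. Of 25 steps 8 were called higher at the later day and 1 lower, beside the same shares of 1.67% to 33.5% of all tested probe sets per step.

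JKC 725 read 155, 371 and 136 for CTL1 at 9 dpa and 1824, 695 and 2873 at 12 dpa. It read 11661, 11073 and 11774 at 19 dpa and 18395, 16406 and 17031 at 25 dpa. The high array at 9 dpa and the low one at 12 dpa were replicate 2 of each day. The steps to 9, 12 and 19 dpa were called at +1.35, +2.92 and +2.90 (SE 0.42; adjusted p = 0.0155, 6.42e-07 and 4.31e-08). The first of these was lost without JKC 725 at 9 dpa replicate 2 (+0.91, adjusted p = 0.147) and without 6 dpa replicate 1 (+1.25, adjusted p = 0.0688). The only fall called for CTL1 was also in JKC 725, where 6 dpa fibre read 64.9, 92.8 and 71.2 and ovules 152, 171 and 152. That change was -1.02 ± 0.42 (SE; adjusted p = 0.0323), and it was lost on leaving out any of 5 of the 6 arrays, all but 6 dpa replicate 2, with adjusted p of 0.0555 to 0.0919. It was also lost with quantile normalization (-0.42, adjusted p = 0.371), median centring (-0.61, adjusted p = 0.221) and an added 32 (-0.82, adjusted p = 0.0641).

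JKC 703 read 178, 139 and 187 for CTL1 at 9 dpa and 4887, 4941 and 2519 at 12 dpa. It read 11071, 11969 and 12913 at 19 dpa and 16583, 19547 and 17673 at 25 dpa. The 12 dpa arrays lay far above every 9 dpa array, and the step was +4.52 ± 0.42 (SE; adjusted p = 3.21e-13). The step to 19 dpa was +1.60 ± 0.42 (adjusted p = 0.00102), and without replicate 3 of every group it was +1.23 (adjusted p = 0.0630). In JKC 725 and JKC 703 alike the step to 25 dpa was not called, at +0.59 and +0.58 (adjusted p = 0.379 and 0.381).

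In JKC 777 and JKC 737 CTL1 was flat through 19 dpa and then jumped. JKC 777 read 85.4, 74.3 and 80.4 at 19 dpa and 10583, 12599 and 2087 at 25 dpa. JKC 737 read 138, 141 and 173 at 19 dpa and 11411, 12769 and 12700 at 25 dpa. The last steps were +6.28 and +6.32 (SE 0.42; adjusted p = 1.84e-19 and 7.42e-20), and none of the 8 earlier steps of these genotypes was called. The low 25 dpa array of JKC 777, replicate 3, was also the lowest of that group for the CelA1 probe set U58283, at 7858.

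JKC 783 had the weakest CTL1 response. Its arrays read 139, 71.4 and 74.3 at 12 dpa, 476, 63.0 and 243 at 19 dpa, and 436 and 1371 at 25 dpa. The 25 dpa arrays overlapped those of 19 dpa. The step to 19 dpa was +1.08 (adjusted p = 0.0584) and the step to 25 dpa was called at +1.96 ± 0.47 (SE; adjusted p = 0.00334). That call rests on single arrays, since it was lost without JKC 783 at 25 dpa replicate 2 (+1.14, adjusted p = 0.320) and without 19 dpa replicate 2 (+1.17, adjusted p = 0.115), and without replicate 2 of every group it was +0.35 (adjusted p = 0.859).

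The net change of CTL1, 25 against 6 dpa, was called higher in all 5 genotypes. Mean signals at 25 and at 6 dpa were 17277 and 76.3 (JKC 725), 8423 and 89.9 (JKC 777), 17934 and 165 (JKC 703), 903 and 136 (JKC 783), and 12293 and 85.8 (JKC 737). The changes were +7.76, +6.13, +6.75, +2.47 and +7.11 in that order of genotypes (SE 0.42, and 0.47 in JKC 783; largest adjusted p = 8.09e-06). JKC 783 thus moved by far less than the rest, and its 25 dpa level lay 3.07 ± 0.47 below that of the next genotype, JKC 777 (adjusted p = 2.82e-06).

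**Figure D4:**
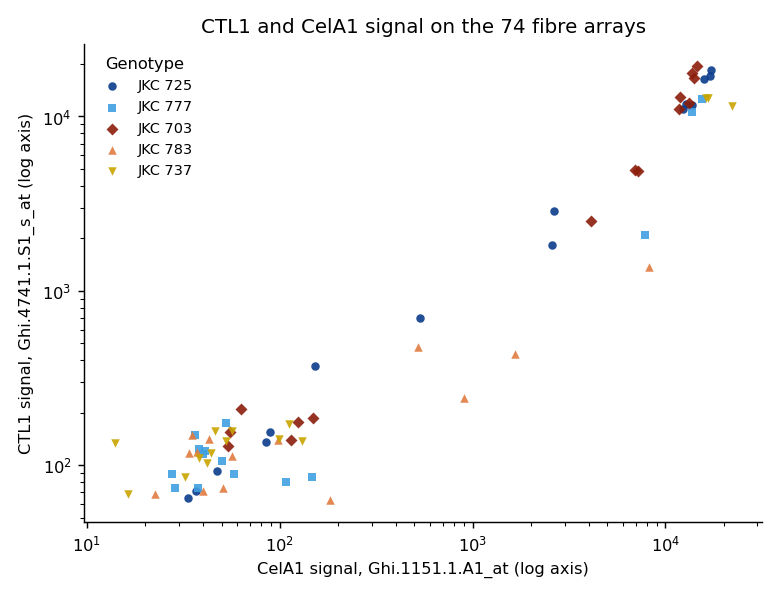
CTL1 signal against CelA1 signal (U58283) on the 74 fibre arrays, both axes logarithmic, with 1 point per array and genotypes by colour and shape. Arrays with high CelA1 also have high CTL1 in 4 genotypes, while the highest JKC 783 array has 8258 for CelA1 and 1371 for CTL1.

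Genotypes were also compared on each day, by limma's F test over the 5 genotypes with a range of their means of at least 1. In ovules none of the 3 probe sets was called (adjusted p = 0.546 for CelA1 U58283, 0.763 for CelA1 CO499660 and 0.727 for CTL1), where 28.5% of all tested probe sets were. At 6 and 9 dpa the CelA1 probe set CO499660 was called with ranges of 7.62 and 6.10 (adjusted p = 2.91e-20 and 2.53e-13), and U58283 was called at 9 dpa alone of these days with a range of 1.88 (adjusted p = 1.48e-04), against 27.9% and 25.6% of all tested probe sets on those days. CTL1 was not called at 6 dpa (range 1.06, adjusted p = 0.104) or 9 dpa (range 1.00, adjusted p = 0.258).

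At 12 dpa the pattern was reversed between the CelA1 probe sets. U58283 ranged over 7.24 (adjusted p = 8.18e-26) and CTL1 over 5.37 (adjusted p = 2.14e-20). CO499660 ranged over only 0.19 (adjusted p = 0.999), and its 15 arrays all lay between 2265 and 5738. With an SE of 0.66 for a pair of genotypes, smaller differences at that day could not be resolved. The F test called 30.1% of all tested probe sets at 12 dpa.

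At 19 and 25 dpa all 3 probe sets were called, as were 49.2% and 49.4% of all tested probe sets. The ranges at 19 dpa were 7.18 for CelA1 U58283, 3.77 for CelA1 CO499660 and 7.15 for CTL1 (largest adjusted p = 1.23e-07). At 25 dpa they were 2.29, 5.06 and 4.52 in that order (adjusted p = 3.24e-04, 2.88e-10 and 4.82e-13). For CelA1 U58283 the call at 25 dpa rests on JKC 783, and without replicate 1 of every group, which left 1 array of JKC 783, the range was 0.99 with an adjusted p of 0.535.

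The order of the genotypes was read from the 10 pairs within each day, and over the 60 pairs of all days 13% of the comparisons across all tested probe sets were called. For CelA1 U58283 at 9 dpa 6 pairs were called, those that set JKC 703 or JKC 725 against JKC 777, JKC 783 or JKC 737. At 12 dpa JKC 703 was also above JKC 725, by 1.93 ± 0.44 (SE; adjusted p = 0.00186). That gap includes JKC 725 replicate 2, at 532 against 2594 and 2660, the array that stood apart from its group. Pairs were not rerun with arrays left out. At 19 dpa JKC 725 and JKC 703 differed by 0.08 (adjusted p = 0.941) and both were above JKC 783, which in turn was above JKC 737 by 1.93 (adjusted p = 0.00424), while JKC 737 and JKC 777 differed by 0.39 (adjusted p = 0.735). At 25 dpa the 4 pairs called were those with JKC 783, which lay 1.68 ± 0.49 below JKC 777 (adjusted p = 0.0160), and the other genotypes were not separated.

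For CelA1 CO499660 the same 6 cross pairs were called at 6, 9, 19 and 25 dpa, and no pair at 0 or 12 dpa. JKC 725 and JKC 703 were on top at 6 and 9 dpa and at the bottom at 19 and 25 dpa. At 6 dpa JKC 725 was above JKC 777 by 6.82 ± 0.66 (SE; adjusted p = 1.45e-12). At 19 dpa JKC 777 was above JKC 725 by 2.49 ± 0.66 (adjusted p = 0.00111). Neither JKC 725 against JKC 703 nor any pair among the other 3 genotypes was called on any day. JKC 737 had the highest 25 dpa mean, but its difference of 1.21 from JKC 777 was not called (adjusted p = 0.235).

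For CTL1 no pair was called at 0, 6 or 9 dpa. At 12 dpa JKC 703 was above JKC 725 by 1.35 ± 0.42 (SE; adjusted p = 0.0298), and both were above the other 3 genotypes, with a gap of 3.45 between JKC 725 and JKC 737 (adjusted p = 5.51e-10). The gap between JKC 703 and JKC 725 draws on JKC 725 replicate 2, at 695 against 1824 and 2873. The arrays of JKC 725 and JKC 703 overlapped, since the lowest of JKC 703 read 2519. At 19 dpa the gap was 5.84 between JKC 725 and JKC 783 (adjusted p = 3.96e-19), and JKC 783, JKC 737 and JKC 777 were not separated. At 25 dpa 6 pairs were called, 4 of them with JKC 783, which was below each other genotype. JKC 725 was above JKC 777 by 1.40 ± 0.42 (adjusted p = 0.00459), and JKC 777 minus JKC 703 was -1.45 ± 0.42 (adjusted p = 0.00297). The size of both gaps leans on JKC 777 replicate 3, at 2087 against 10583 and 12599, and neither was rerun without it. Every JKC 777 array was below every array of JKC 725 and JKC 703.

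Over the 5 fibre days the genotypes' courses differed in all 3 probe sets by the interaction of genotype and day (F = 31.2, 32.7 and 30.1 for CelA1 U58283, CelA1 CO499660 and CTL1; largest adjusted p = 5.11e-22). Such an interaction was called for 78.9% of the tested probe sets, and by F the 3 ranked 352, 318 and 390 of 18889.

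JKC 725 and JKC 703, which had like courses, carry different class labels. The classes were tested only on their means over the fibre days, in which a rise and a fall can cancel. With so few genotypes, the lack of a call decides little. The mean over the fibre days of superior minus inferior genotypes was +0.22 ± 1.32 for CelA1 U58283, +0.09 ± 0.50 for CelA1 CO499660 and +0.28 ± 1.24 for CTL1 (SE, 2 against 3 genotypes). The adjusted p was 1.00 for each, and 0% of the tested probe sets were called in limma, with 140 at an unadjusted p under 0.05. For CTL1 the superior JKC 725 and JKC 777 averaged 10.43 and 7.94 on the log2 scale, and the inferior JKC 703, JKC 783 and JKC 737 averaged 10.88, 7.52 and 8.31, so JKC 725 and JKC 703 were the highest and belong to different classes.

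Markers of other tissue were read beside the late days, where JKC 725 and JKC 703 stood apart. All 6 ovule and seed marker probe sets found were tested, and no green tissue marker of the list was found. Their summed signal at 25 dpa was 13591 to 19990 in JKC 725 and 22240 to 23790 in JKC 703, against 6370 to 12609 in JKC 777, 6504 to 11671 in JKC 783 and 6337 to 7120 in JKC 737. Such a sum is led by its brightest probe sets, and the 6 did not move together. Lea5-D, a late embryogenesis abundant gene, averaged 10637 ± 3250 in JKC 725 and 16696 ± 1052 in JKC 703, against means of 2889 to 4601 in the others (SD, n = 3). The seed storage gene LegA had 185 ± 162 and 29.0 ± 35.6, against 4.79 to 14.7, and 1 of 2 LEGB probe sets had 393 and 52.7, against 7.83 to 9.01. The other LEGB probe set had 58.3 and 83.1, against 78.5 to 138, Lea14-A had 83.1 and 156, against 62.3 to 773, and the histone gene HIS2B had 5624 and 6084, against 3279 to 5276. No marker was at 0. At 12 dpa, when CelA1 U58283 and CTL1 had already separated the genotypes, the summed signal was 5582 to 10660 in JKC 725 and 8985 to 12282 in JKC 703, against 5965 to 9025 over the arrays of the others. Single markers differed earlier. At 6 dpa Lea5-D averaged 2259 in JKC 725 and 2748 in JKC 703, against 425 to 621 in the others. HIS2B went the other way, with 4891 and 5163 against 8422 to 8823, as did Lea14-A, with 689 and 511 against 694 to 1146. No ovule and seed marker but Lea5-D was higher in both.

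The summed signal of the 6 fibre marker probe sets at 25 dpa was 33660 to 41409 in JKC 725 and 37400 to 41482 in JKC 703, against 61884 to 97353 over the arrays of the others. EXPA1, an expansin of elongating fibre that loosens walls, had means of 392 and 315 in JKC 725 and JKC 703, against 12162 to 13417 in the others, and E6 had 5961 and 5760, against 16406 to 22800. The 2 LTP3 probe sets, for a lipid transfer protein, also had lower means in both, with 12509 and 11587, against 15491 to 20426, and with 47.9 and 145, against 186 to 433. H6L did not separate the genotypes, with 16949 and 20169, against 16643 to 20141, nor did HOX3, a homeodomain factor of fibre, with 1292 and 1194, against 835 to 1277. The part of these markers in the CelA1 and CTL1 differences was not tested.

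Among the 303 tested probe sets with a readable gene name, the closest courses to CelA1 U58283 over the 25 fibre group means were those of PAP10, a purple acid phosphatase (r = 0.98), CTL1 (0.97), Rac9, a small GTPase (0.97), FLA7, a fasciclin-like arabinogalactan protein (0.93), and CEL (0.93). PAP10 had 2309 and 2764 in JKC 725 and JKC 703 at 19 dpa, against 372, 509 and 274 in JKC 777, JKC 783 and JKC 737. For CTL1 they were CelA1 U58283 (0.97), FLA7 (0.96), PAP10 (0.93), Rac9 (0.92) and KT (0.92). CTL1 and the CelA1 probe set CO499660 had r = 0.16 (Spearman 0.22).

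The CelA1 probe set CO499660 kept other company. Its closest named courses were those of the germin-like gene Glp1 (r = 0.92), of the alpha-tubulin gene TUA10 on 2 of its probe sets (0.91 each), of the beta-tubulin gene BTub1 (0.91) and of the mitogen-activated protein kinase gene MPK3 (0.89). Glp1 had 6083 and 5561 in JKC 725 and JKC 703 at 25 dpa, against 16346, 13862 and 16434 in JKC 777, JKC 783 and JKC 737. At r of at least 0.9, 306 tested probe sets went with CelA1 U58283, 251 with CTL1 and 44 with CelA1 CO499660. These counts depend on the measure, and by Spearman's rho they were 215, 5 and 17, and by Pearson's r over all 30 groups 200, 164 and 84. The named probe sets depend on it too. Over all 30 groups, 4 of the 5 stayed among the closest 5 for CelA1 U58283, 5 for CTL1 and 2 for CelA1 CO499660. By Spearman's rho 2 of the 5 stayed for each. These correlations describe 25 means from shared arrays and carry no test.

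The other listed genes of the secondary wall were read in the same net change, 25 against 6 dpa. Over all tested probe sets, 24.4%, 13.6%, 20.3%, 12.8% and 13.8% were called higher and 19%, 18.8%, 18.9%, 19.3% and 26.1% lower in JKC 725, JKC 777, JKC 703, JKC 783 and JKC 737, and each list holds too few probe sets for its share to be set firmly against them. The list of cellulose synthases and partners held only the 3 probe sets described here. The 3 probe sets of nst3, a NAC factor that switches on secondary wall genes, were called higher in every genotype. The one that changed most did so by +5.51 (JKC 725), +7.21 (JKC 777), +6.25 (JKC 703), +5.59 (JKC 783) and +7.19 (JKC 737). The medians of the list were +4.83 to +6.88 by genotype, beside medians over all tested probe sets of -0.23 to +0.11.

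Of 4 sucrose synthase probe sets, which measure the enzyme that splits sucrose and supplies UDP-glucose for cellulose, 2 were called higher in JKC 725 and in JKC 703 and 1 in each other genotype. The medians of the list were +0.70 to +1.87 by genotype. The largest change was that of susC, +4.52 (JKC 725), +6.89 (JKC 777), +3.49 (JKC 703), +6.18 (JKC 783) and +7.19 (JKC 737). Sus1 was between -0.75 and -0.31 and was not called. Of 3 Rac probe sets 2 were called higher in every genotype. Rac9 changed by +4.56, +5.02, +3.76, +4.14 and +5.12 in the order JKC 725, JKC 777, JKC 703, JKC 783 and JKC 737, while Rac2 was between -0.04 and +0.70 and was not called.

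Of 19 probe sets of fasciclin-like arabinogalactan genes, cell wall glycoproteins, 17 were tested. Higher calls numbered 6 in JKC 725, JKC 777 and JKC 703 and 7 in JKC 783 and JKC 737, and lower calls numbered 9 in JKC 725 and JKC 703, 5 in JKC 777 and 4 in JKC 783 and JKC 737. The medians were -2.23 in JKC 725 and -1.33 in JKC 703, and +0.31 to +0.79 in the other genotypes. A FLA6 probe set changed most, by +9.03 in JKC 703 to +10.42 in JKC 737, and FLA4 changed by +1.07 in JKC 703 to +2.48 in JKC 783. FLA7, whose course was close to CTL1, changed by +9.31 (JKC 725), +6.80 (JKC 777), +10.06 (JKC 703), +3.96 (JKC 783) and +8.10 (JKC 737). JKC 783 was lowest for FLA7 as for CTL1, but FLA7 was named for that likeness, so the match is no separate evidence.

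Of 7 tubulin probe sets, which measure the microtubules that guide cellulose deposition, 5 were called higher in JKC 777, JKC 783 and JKC 737 and 1 in JKC 725 and JKC 703, where 1 of 7 is a smaller share than that called overall. The medians were +0.68 in JKC 725 and +0.39 in JKC 703, and +2.003 to +2.29 in the other genotypes. The TUA10 probe set closest to CelA1 CO499660 changed by +5.85, +6.42 and +6.72 in JKC 777, JKC 783 and JKC 737 and by +0.89 and +0.43 in JKC 725 and JKC 703, which were not called. A brighter TUA10 probe set did not split the genotypes in this way. It changed by +0.64 to +0.80 and was called in none. TUA6 was between -0.14 and +0.38 and was not called. Whether the lists differ between genotypes was not tested. The CTL1 probe set is of a type, marked s_at, that may pick up related transcripts as well, and copies of a gene from both subgenomes of this allotetraploid may be read together.

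**Figure D5:**
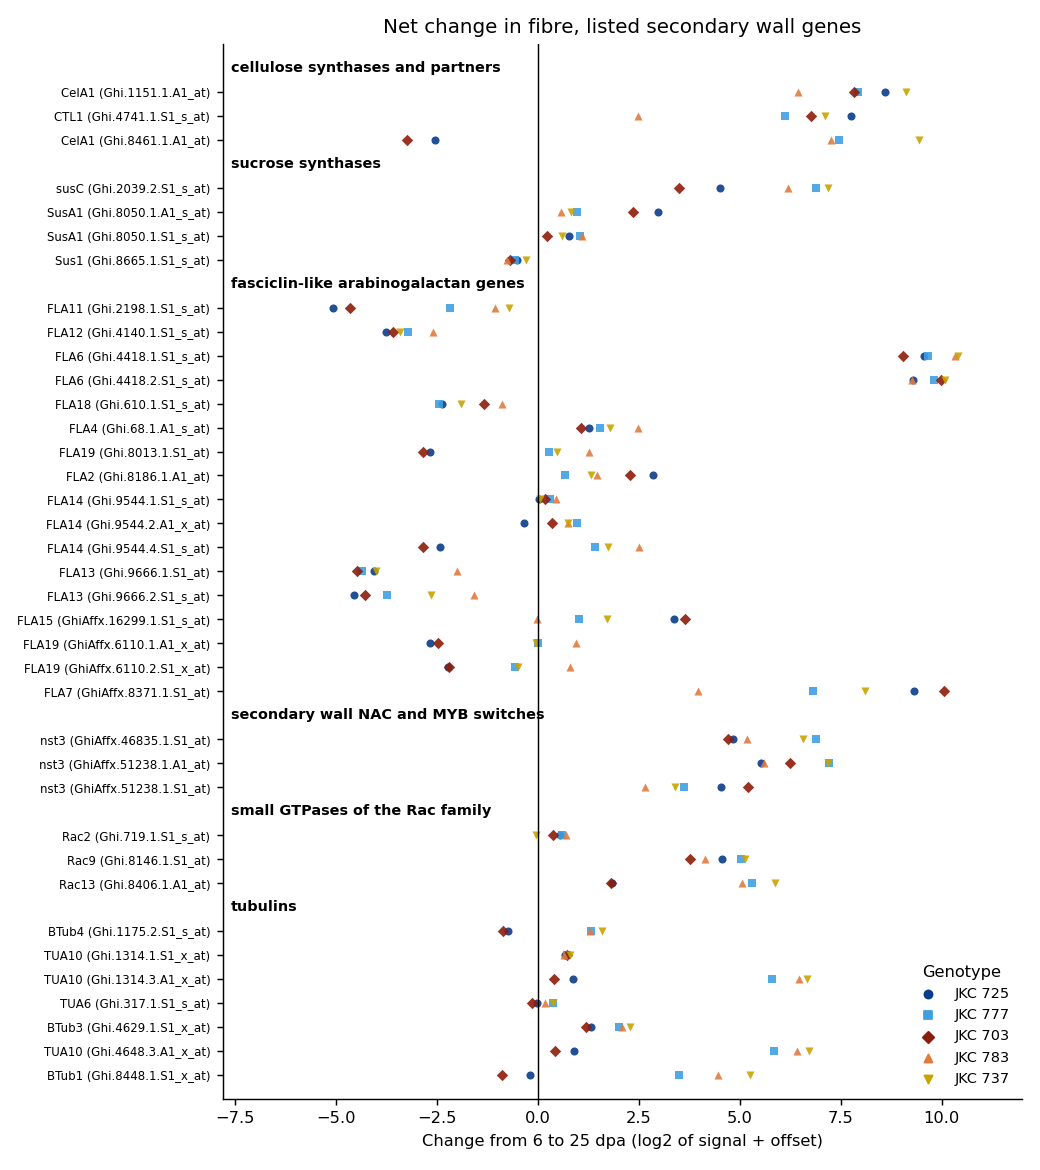
Net change from 6 to 25 dpa in log2 of signal plus 4.38 for the 37 tested probe sets of the secondary wall lists, with 1 point per genotype and the vertical line at 0. The nst3, Rac9 and FLA6 probe sets lie right of 0 in all genotypes, while CelA1 CO499660 and the TUA10 probe set closest to CelA1 CO499660 separate JKC 725 and JKC 703 from the other genotypes. That TUA10 probe set was picked for its likeness to CO499660.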

How the data were processed

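RNA of 89 ovule and fibre samples was labelled as biotin cRNA and hybridised to Affymetrix Cotton Genome arrays, per the labels' protocols. Each deposited value is an intensity on a linear scale that the authors computed with MAS5, version not stated, per the submitters' processing notes. The 2% trimmed mean of every array was 500.1 to 500.2 and the median 59.9 to 119.8. The number of arrays limits the precision.

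Signals were converted to log2(signal + 4.38), with the 10th percentile of all signals as offset. Leaving out 103 controls, 18889 probe sets were tested, those with at least 1 of 30 group means at 40.4 or above, the 40th percentile. One model with a mean for each group was fitted across them in limma 3.58.1 (R 4.3.3). The variance prior followed signal, and p-values were adjusted by Benjamini and Hochberg's method over every tested probe set. The fit and the permutation test were tested on simulated data. Labelled classes were compared over the 5 genotype means.

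Names came from a table made from GEO's platform annotation, which may be old, and from synonyms in RefSeq (assembly Gossypium_hirsutum_v2.1). Of 743 listed probe sets 697 had 1 gene and 46 more than 1, while 23389 were not named. A readable name was found for 324. Named genes are the 3 probe sets, the 5 nameable probe sets most correlated with each, and in each list the called probe set with the largest mean absolute net change and the one with the highest mean signal. FLA7, Lea5-D, LegA, EXPA1 and the TUA10 probe set called in no genotype were added after their values were seen. The rest of the ovule, seed and fibre markers were named beside them. The probe sets, lists and markers were chosen with earlier results of these data known. No 2 arrays held identical values (highest r = 0.995). Other offsets, scalings, filters, variance priors and left-out arrays were tried as alternatives.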

Additional observations from a re-analysis of the deposited data

Results flagged for a closer look

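The courses of the 5 genotypes over the fibre days differed from each other in each of the 3 probe sets, by limma's F test of the interaction of genotype and day. The adjusted p was 2.03e-22 for CelA1 U58283, 5.98e-23 for CelA1 CO499660 and 5.11e-22 for CTL1. Most probe sets shared this, since the interaction was called for 78.9% of those tested. In CelA1 CO499660 the net change from 6 to 25 dpa was negative in JKC 725 and JKC 703 and positive in the other 3 genotypes.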

How the results depend on the processing

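All 15 net changes kept their direction and call under each of 14 alternatives. For CelA1 U58283 they ranged over 7.84 to 8.76 in JKC 725, 7.28 to 8.13 in JKC 777, 7.31 to 7.92 in JKC 703, 5.27 to 7.59 in JKC 783 and 8.21 to 9.55 in JKC 737. For CelA1 CO499660 they ranged over -2.91 to -2.18 in JKC 725, 6.49 to 7.82 in JKC 777, -3.55 to -2.87 in JKC 703, 6.11 to 8.27 in JKC 783 and 8.05 to 9.87 in JKC 737, and for CTL1 in JKC 783 over 1.65 to 3.36. The interactions kept their calls wherever they were run. No change of direction touched a call; all 28 were in values that were not called.

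Of the 28 called steps, 21 to 23 were kept when a replicate number was left out throughout, 24 with an offset of 32, 25 with median centring and 26 with quantile normalization. With the replicate number as a block, 27 were kept, and the step of CelA1 U58283 from 12 to 19 dpa in JKC 737 was lost (adjusted p = 0.0525); no other call changed under the block. Replicate numbers do not pair these samples: the 74 same-numbered pairs of fibre groups had deviations correlated at a median of -0.0066, with 11 over 0.1.

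Leaving out arrays moved the count of called steps of CelA1 U58283 over 7 to 11, its genotype range at 25 dpa over 0.99 to 3.51, the CelA1 divergence from 6 to 9 dpa over 0.70 to 2.15 and from 9 to 12 dpa over -0.094 to 1.25, and the class difference of CO499660 over -0.085 to 0.28. Uncalled steps that crossed 0 were, for CelA1 U58283, 0 to 6 dpa in JKC 777 (-0.84 to 0.036) and JKC 703 (-0.082 to 0.10), and 6 to 9 dpa in JKC 777 (-0.43 to 0.22), JKC 783 (-0.34 to 0.11) and JKC 737 (-0.15 to 0.30). Others were 0 to 6 dpa of CO499660 in JKC 737 (-0.051 to 0.089), and of CTL1 0 to 6 dpa (-0.33 to 0.11) and 6 to 9 dpa (-0.19 to 0.18) in JKC 703 and 9 to 12 dpa in JKC 783 (-0.64 to 0.17) and JKC 737 (-0.10 to 0.16). Quantile normalization turned U58283 at 25 dpa against 19 dpa in JKC 725 (-0.15) and JKC 703 (-0.22), at 9 against 6 dpa in JKC 777 (0.033) and at 6 against 0 dpa in JKC 783 (0.011), CO499660 at 6 against 0 dpa in JKC 737 (0.085), and CTL1 in JKC 703 at 6 against 0 dpa (0.18) and 9 against 6 dpa (-0.030). Median centring turned U58283 at 6 against 0 dpa in JKC 725 (0.060) and 9 against 6 dpa in JKC 777 (0.060), CO499660 at 6 against 0 dpa in JKC 737 (0.17), and CTL1 in JKC 703 (0.080 and -0.031, same steps) and at 12 against 9 dpa in JKC 783 (0.021). An offset of 32 turned CO499660 at 6 against 0 dpa in JKC 737 (0.0031). The cause was not tested. The probe sets at r of 0.9 or more over all 30 groups numbered 200, 84 and 164 for U58283, CO499660 and CTL1, and by Spearman rho 215, 17 and 5. Leaving out single arrays of JKC 703 at 19 dpa and JKC 783 at 25 dpa, and each array in turn, was added after seeing the data.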
